A study of Drosophila melanogaster with 2 samples.

Results

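The testis meiotic arrest genes of Drosophila melanogaster are named for mutants whose spermatocytes stop before the meiotic divisions and make no spermatids. Of the 9 gene symbols that define the group (aly, comr, topi, tomb, can, sa, mia, nht and rye), 8 matched a symbol exactly in a table of 15627 genes. No row carried the symbol rye. The RefSeq gene table lists rye as an older name of Taf12L (locus CG15632) and also of an acetylcholine receptor gene. Taf12L is the testis TAF12 gene and has a row in the table, so its values are given beside those of the 8 genes and are left out of their counts and medians unless named. Genes were compared between a chromatin immunoprecipitation (ChIP) library made with an antibody against dBigH1 and a library of input DNA made with no antibody. Both came from embryos of the w1118 stock collected 0 to 2 h after fertilization. With 1 library per group, no difference could be checked against replicates, and p-values are not reported. The labels do not say whether both libraries came from the same embryos, or how many embryos went into each.

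dBigH1 is the linker histone variant loaded into the egg, and it packages embryonic chromatin until the somatic linker histone H1 takes over. It is also found in germ cells. The arrest genes code for 2 sets of proteins that switch on transcription in primary spermatocytes. The testis meiotic arrest complex (tMAC) is a testis form of the MuvB type of complex, which elsewhere acts on cell cycle and developmental genes. The testis TAFs (tTAFs) are testis copies of TBP-associated factors, the subunits of the general transcription factor TFIID, and act with tMAC on genes of spermatid formation. Both sets are known for their role in the male germ line, long after the stage sampled here. The measurement is of DNA recovered over each gene and not of its RNA, so markers of tissue or cell type cannot be read from it.

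The values are RPKM, reads scaled to the width of the gene and the size of the library, introns included. The reads per gene summed to 5206548 in the ChIP and 3696767 in the input library. The median gene held 98 ChIP reads and 74 input reads, and the 8 arrest genes held 29 to 258 ChIP reads and 29 to 145 input reads. Ratios are log2((ChIP RPKM + 1)/(input RPKM + 1)), a scale that shrinks the ratio where a gene has little signal. All 95% intervals are exact for independent reads and cover counting error only. Whether PCR copies of a molecule were removed is not given. If copies were counted as separate reads, the intervals are too narrow. The median log2 ratio of all genes was -0.04, and the middle 50% of genes lay between -0.23 and 0.14. Values below are set against that median.

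Across the 8 genes, dBigH1 ChIP signal lay close to input, and the genes did not share a direction. Each library is scaled to its own size, so a ratio near 0 means a level near that of the genome and gives no absolute amount of dBigH1. ChIP RPKM ran from 3.67 to 9.15 with a median of 6.49, and input RPKM ran from 4.86 to 8.13 with a median of 6.10. Over all genes the medians were 6.38 RPKM in the ChIP and 6.51 RPKM in the input library. The median log2 ratio of the 8 genes was 0.07, with a lowest value of -0.40 and a highest of 0.39. Their reads pooled, 969 in the ChIP and 660 in the input, gave a log2 ratio of 0.07 (interval -0.08 to 0.21), computed with no added RPKM. Of the 8 genes, 5 exceeded the median of all genes and the other 3 lay under it, where by construction 50% of all genes lie on either side. At least 0.25 above the median lay 2 genes (can and sa), against 17.7% of all genes, and at least 0.25 below it lay 2 (tomb and mia), against 19.6% of all genes. A single-gene counting interval wholly above the median was found for can alone, and one wholly below it for mia alone, against 10.6% and 9.59% of all genes. The call of mia ended with either of 2 other backgrounds, whose medians are given with that gene. These shares are near those of the genome for a group of this size. The SD of the log2 ratio among the 8 genes was 0.29, and among the 8078 genes with 29 to 145 input reads it was 0.30.

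**Figure D1:**
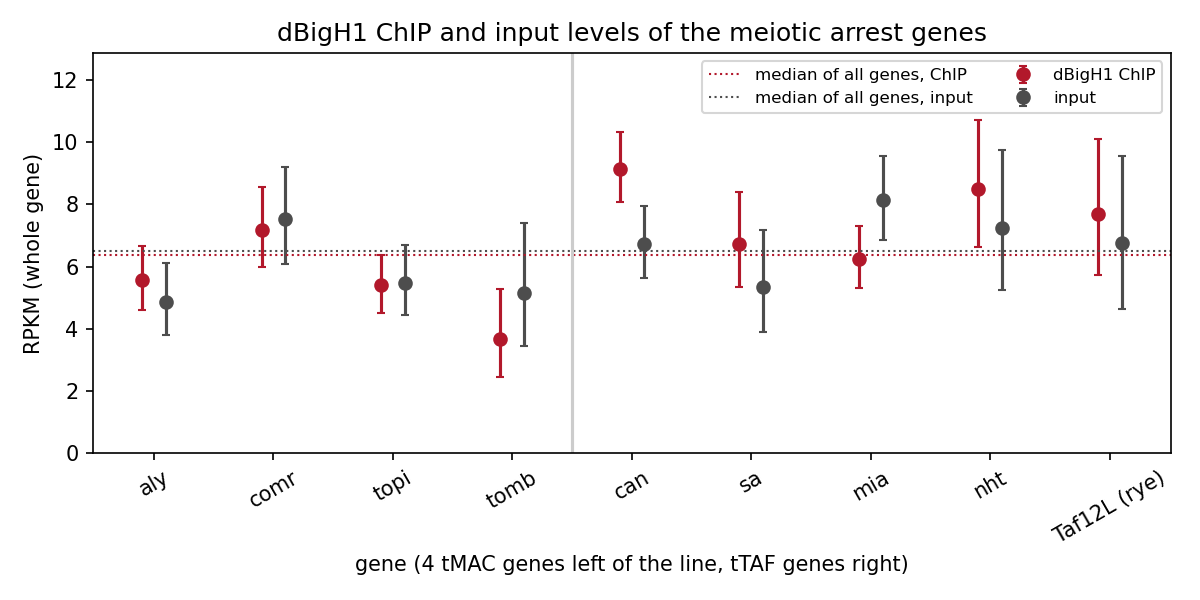
RPKM over the whole gene (y axis) in the dBigH1 ChIP library (red) and the input library (grey) for each meiotic arrest gene and Taf12L (x axis), with 95% Poisson intervals of the reads as bars and the medians of all genes as dotted lines. The ChIP point of can, at 9.15 RPKM, is the highest of all, and for comr, topi, tomb and mia the ChIP point lies below the input point.

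Among the tMAC genes, aly codes for a testis relative of LIN-9 and Mip130, subunits of complexes of this type. It lies on 3L from 3024129 to 3026521 (dm3, minus strand, 2393 bp). It had 5.55 RPKM in the ChIP (117 reads) and 4.86 RPKM in the input (73 reads). Its log2 ratio of 0.16 (interval -0.20 to 0.53) was the highest of the 4 tMAC genes, and 22.9% of all genes had a higher one. The ChIP level itself was below the genome median, and aly had the lowest input RPKM of the 8 genes.

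The gene comr (2R 17752372 to 17754364, 1993 bp) codes for a nuclear protein found with aly on spermatocyte chromatin. It had 7.18 RPKM in the ChIP (126 reads) and 7.52 RPKM in the input (94 reads), a log2 ratio of -0.06 (interval -0.41 to 0.29). The gene topi (3R 5600843 to 5603665, 2823 bp) codes for a zinc finger protein. It had 5.39 RPKM in the ChIP (134 reads) and 5.48 RPKM in the input (97 reads), a log2 ratio of -0.02 (interval -0.35 to 0.31). For both genes the libraries differed by less than counting error, and both ratios lay within 0.02 of the median of all genes.

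The gene tomb (2L 5535861 to 5536758, 898 bp) codes for a protein with the cysteine-rich DNA-binding domain of LIN-54 and Mip120. It held 29 reads in each library, which gave 3.67 RPKM in the ChIP and 5.15 RPKM in the input. Its log2 ratio of -0.40 was the lowest of the 8 genes, and 11.9% of all genes had a lower one. With the lowess correction (tomb -0.30, mia -0.31) and on the authors' deposited score (tomb -0.76, mia -1.04), mia was the lowest instead. With so few reads its interval ran from -1.03 to 0.25 and took in the median of all genes, so a difference from it was not detectable at this depth.

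Among the tTAF genes, can is the testis copy of TAF5, a subunit with WD repeats. It lies on 3L from 10257009 to 10260211 (minus strand, 3203 bp). It had 9.15 RPKM in the ChIP (258 reads) and 6.72 RPKM in the input (135 reads). Its ChIP level exceeded that of 93.4% of all genes while its input level exceeded that of 55.1%. The log2 ratio of 0.39 (interval 0.12 to 0.67) corresponds to a 1.31-fold higher ChIP signal on the scale with 1 RPKM added, and 7.53% of all genes had a higher ratio.

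The testis TAF8 gene sa (3L 21398525 to 21399838, 1314 bp) had 6.74 RPKM in the ChIP (78 reads) and 5.34 RPKM in the input (44 reads). Its log2 ratio was 0.29 (interval -0.18 to 0.77), exceeded by 12.0% of all genes. The testis TAF4 gene nht (2L 15317954 to 15318901, 948 bp) had 8.51 RPKM in the ChIP (71 reads) and 7.23 RPKM in the input (43 reads). Its log2 ratio was 0.21 (interval -0.30 to 0.72), which placed it 0.247 above the median of all genes, just short of 0.25. The gene Taf12L, the row matched to rye (2L 4700835 to 4701588, 754 bp), had 7.68 RPKM in the ChIP (51 reads) and 6.77 RPKM in the input (32 reads), a log2 ratio of 0.16 (interval -0.42 to 0.75). In all 3 the ChIP level was the higher one, and in all 3 the interval took in the median of all genes.

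The testis TAF6 gene mia (3R 1374048 to 1376889, 2842 bp) stood on the other side of the median from can, sa and nht. It had 6.23 RPKM in the ChIP (156 reads) and 8.13 RPKM in the input (145 reads), the highest input level of the 8 genes. Its log2 ratio was -0.34, and 15.8% of all genes had a lower one. Its interval ran from -0.63 to -0.0414, and its upper end lay narrowly below the median of all genes, which was -0.0387. Against the median of genes that passed the filter on input RPKM (-0.0444), or of genes with 29 to 145 input reads (-0.0777), the interval took in the median.

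In the order of ChIP levels, can came first, followed by nht, comr, sa, mia, aly, topi and tomb. In the order of input levels, mia came first, followed by comr, nht, can, topi, sa, tomb and aly. No gene differed from the next in either order beyond the Poisson intervals of their reads. The genes whose levels lay nearest to the medians of the 8 genes were Obp50a, an odorant-binding protein gene, Lip4, a lipase gene, and Ace, the acetylcholinesterase gene. Over the 2 libraries their distances on the log2(RPKM + 1) scale were 0.0045, 0.0061 and 0.0067.

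Taken by complex, the tTAF genes had the higher median ratio, but the counts did not separate the complexes. The 4 tTAF genes had a median log2 ratio of 0.25, and the 4 tMAC genes one of -0.04, the same as all genes. With Taf12L counted as a tTAF gene the tTAF median was 0.21. Above the median of all genes lay 3 of 4 tTAF genes and 2 of 4 tMAC genes. Pooled reads were 563 in the ChIP and 367 in the input for the tTAF genes (log2 ratio 0.13, interval -0.06 to 0.32). For the tMAC genes they were 406 and 293 (log2 ratio -0.02, interval -0.24 to 0.20). The difference of pooled log2 ratios, tTAF minus tMAC, was 0.15, and its exact conditional interval of -0.15 to 0.44 took in 0.

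Each tTAF gene and 2 of the tMAC genes in the group, aly and tomb, have a close relative that is used in many tissues. Set against these relatives, the testis genes had the higher dBigH1 ratio in 6 of 7 pairs. All 7 relatives lay below the median of all genes. A further relative of this kind, lin-52 (0.11), lay above it. Its testis relative, the tMAC subunit wuc, is outside the group, so that pair is not counted here and is given below. The median log2 ratio was 0.16 over the 7 testis genes, Taf12L included, and -0.27 over the 7 relatives, and the median difference within pairs was 0.41 on the scale with 1 RPKM added and 0.50 with none added. Differences in this comparison are of pooled or single genes in the same 2 libraries, so their intervals cover counting error only. The differences of single pairs given next, and their intervals, were computed from reads with no added RPKM.

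Among the TFIID pairs, Taf12L had 7.68 RPKM in the ChIP and 6.77 RPKM in the input, against 6.07 RPKM in the ChIP and 9.98 RPKM in the input for Taf12, whose log2 ratio was -0.64 (interval -1.06 to -0.21). The pair differed by 0.90 (0.07 to 1.74) on the log2 scale. Taf4, the relative of nht, had 5.42 RPKM in the ChIP (403 reads) and 8.20 RPKM in the input (434 reads), a log2 ratio of -0.52 (interval -0.69 to -0.35). The difference of nht from Taf4 was 0.83 (0.23 to 1.45). These were the widest differences of the 7 pairs, and in both the testis gene lay above the median of all genes while its relative lay below it.

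Taf5, the relative of can, had 5.92 RPKM in the ChIP (123 reads) and 6.49 RPKM in the input (96 reads), and can exceeded it by 0.58 (0.07 to 1.09). Taf8, the relative of sa, had 4.59 RPKM in the ChIP (61 reads) and 4.85 RPKM in the input (46 reads), and the difference of 0.42 had an interval from -0.40 to 1.24. Taf6, the relative of mia, had 6.04 RPKM in the ChIP (122 reads) and 7.50 RPKM in the input (108 reads). That gave a log2 ratio of -0.27, and mia differed from it by -0.07 (-0.59 to 0.45). So mia, the exception among the tTAF genes, was also the testis gene that lay below its relative, by less than counting error.

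Among the tMAC pairs, mip130, the relative of aly, had 4.03 RPKM in the ChIP (429 reads) and 4.99 RPKM in the input (379 reads), a log2 ratio of -0.25 (interval -0.42 to -0.09). The difference of aly from mip130 was 0.50 (0.02 to 0.99). The relative of tomb, mip120, had 5.28 RPKM in the ChIP (310 reads) and 7.74 RPKM in the input (324 reads), a log2 ratio of -0.48 (interval -0.68 to -0.28). Here testis gene and relative were both low, and the difference of 0.06 had an interval from -0.77 to 0.89.

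In all, the interval of the difference lay above 0 in 4 of 7 pairs (aly, can, nht and Taf12L) and took in 0 in 3. The share of other gene pairs with such an interval was not computed, so these counts have no background. For single genes set against the median of all genes, the interval lay above it for 10.6% of all genes and below it for 9.59%. The reads of the 7 testis genes summed to 760 in the ChIP and 501 in the input, and those of the 7 relatives to 1518 and 1469. The difference of these sums was 0.55 on the log2 scale (interval 0.36 to 0.75), and mip130, Taf4 and mip120 gave most of the relatives' reads. Testis genes had the higher ChIP RPKM in 6 of 7 pairs and the higher input RPKM in 3 of 7. Median ChIP RPKM was 6.74 over the testis genes and 5.42 over the relatives, and median input RPKM was 6.72 over the testis genes and 7.50 over the relatives. Of the relatives, mip130 and Taf8 lie on the X chromosome, whose 2382 genes had a median log2 ratio of -0.14, and none of the testis genes does. With each gene taken relative to the median of its own arm, the testis gene was the higher one in 6 of 7 pairs and the median difference was 0.30. What part the level of input has in the difference was not tested.

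**Figure D2:**
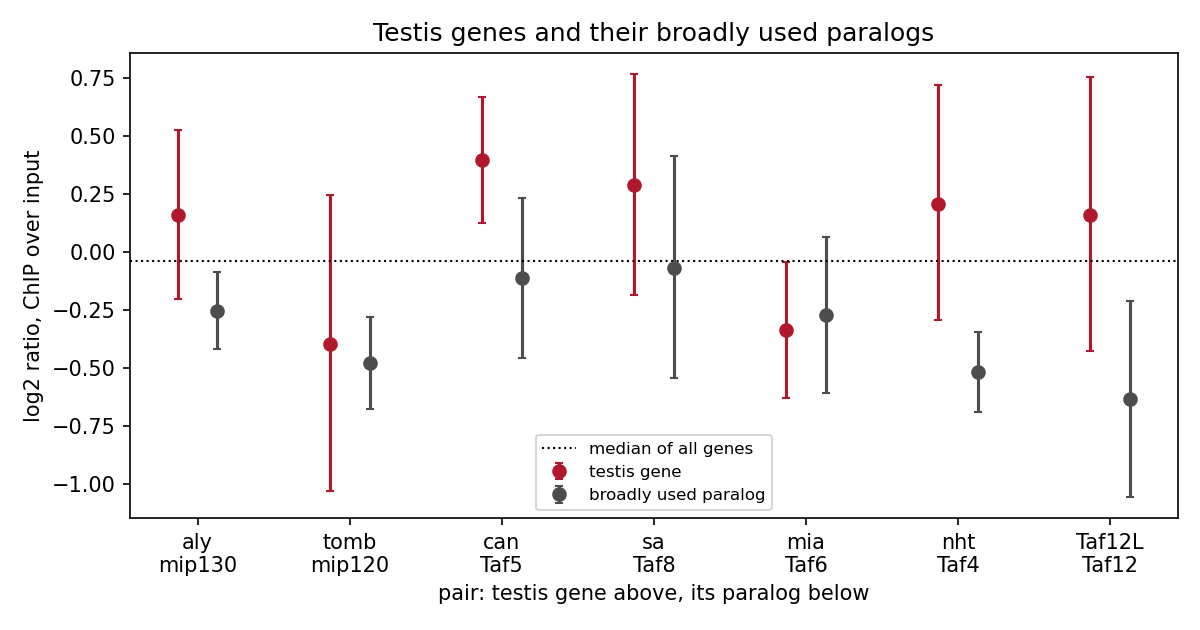
Log2 ratio of dBigH1 ChIP over input (y axis) for 7 testis genes (red) and their broadly used relatives (grey), by pair (x axis), with exact 95% counting intervals as bars and the median of all genes as a dotted line. The red point is the higher one in 6 of 7 pairs, and in the pair of mia and Taf6 it is the lower one.

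The surroundings of the genes differed from gene to gene. The genes that overlap an arrest gene or lie within 10 kb of it were taken from the same table, and left and right refer to lower and higher coordinates. Around mia, all 6 neighbours lay above the median of all genes, with log2 ratios of -0.03 to 0.13. The nearest were CG2519 (0.08, interval -0.09 to 0.25) on the left and Pcmt (-0.03, interval -0.47 to 0.42), a protein repair methyltransferase gene, on the right. Hence mia was lower than each of its 6 neighbours. Apart from Itp-r83A (0.13, interval 0.02 to 0.24), their intervals overlapped that of mia (-0.63 to -0.0414). No interval was computed for these differences. Around tomb, all 7 neighbours lay below the median of all genes, with log2 ratios of -0.39 to -0.08. Neighbours that overlap can share reads and are not independent measurements. Near tomb, Cap-D3 contains tomb, CG31648, CG31915 and CG7277 and overlaps CG14015. Near mia, FBgn0263484 lies inside Pi4KIIalpha, which also overlaps Snm1. At -0.40, tomb had an interval of -1.03 to 0.25, which took in the ratios of all 7 neighbours. Apart from the rest of Cap-D3, given below, no interval was computed for the differences of tomb from its neighbours. Its ratio barely differed from those of the lamin gene Lam (-0.39) and the RNA helicase gene Hel25E (-0.38). The nearest were CG7277 (-0.19) on the left and CG14015 (-0.08) on the right.

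For aly, the nearest neighbours were CG32487 on the left (0.26, interval -0.26 to 0.78) and CG2162 on the right (-0.16, interval -0.37 to 0.04). For comr they were CG9294 (0.17, interval -0.29 to 0.63) and Fili (0.12, interval 0.06 to 0.17, from 4501 ChIP and 2924 input reads), both higher than comr. The surroundings of topi were the most crowded, with 11 neighbours whose log2 ratios ran from -0.45 to 0.37. The nearest to topi were Whamy (-0.28, interval -0.62 to 0.05), a gene of the WASP family of actin regulators, and the ribosomal protein gene RpS29 (0.12, interval -0.36 to 0.60), and topi lay between them. For can, the single gene within reach was the pheromone receptor gene Or67d (-0.10, interval -0.53 to 0.33), which was lower than can. No gene of the table lay within 10 kb of nht.

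The genes tomb, sa and Taf12L lie inside longer genes on the opposite strand. All 121 spans that are listed for 2 or more genes carried equal reads in both libraries, but only 1 of these spans holds genes on both strands. In all 2669 nested pairs the outer gene had at least as many reads as the inner one. The reads of the inner gene were taken off the outer gene on the assumption that reads were counted for both genes also across strands. At a log2 ratio of -0.40, tomb differed by -0.30 (-1.12 to 0.52) from the rest of Cap-D3, a condensin subunit gene, which had 552 ChIP and 448 input reads and a ratio of -0.16 (interval -0.32 to -0.0041). At 0.29, sa differed by 0.18 (-0.38 to 0.76) from the rest of rgn, which had 2618 ChIP and 1676 input reads and a ratio of 0.14 (interval 0.06 to 0.21). At 0.16, Taf12L differed by -0.25 (-0.93 to 0.45) from the rest of CG34351, which had 1560 ChIP and 823 input reads and a ratio of 0.37 (interval 0.26 to 0.47). These differences were computed from reads with no added RPKM. Each of the 3 inner genes lay on the same side of the median of all genes as its host, and none differed from the host by more than counting error.

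**Figure D3:**
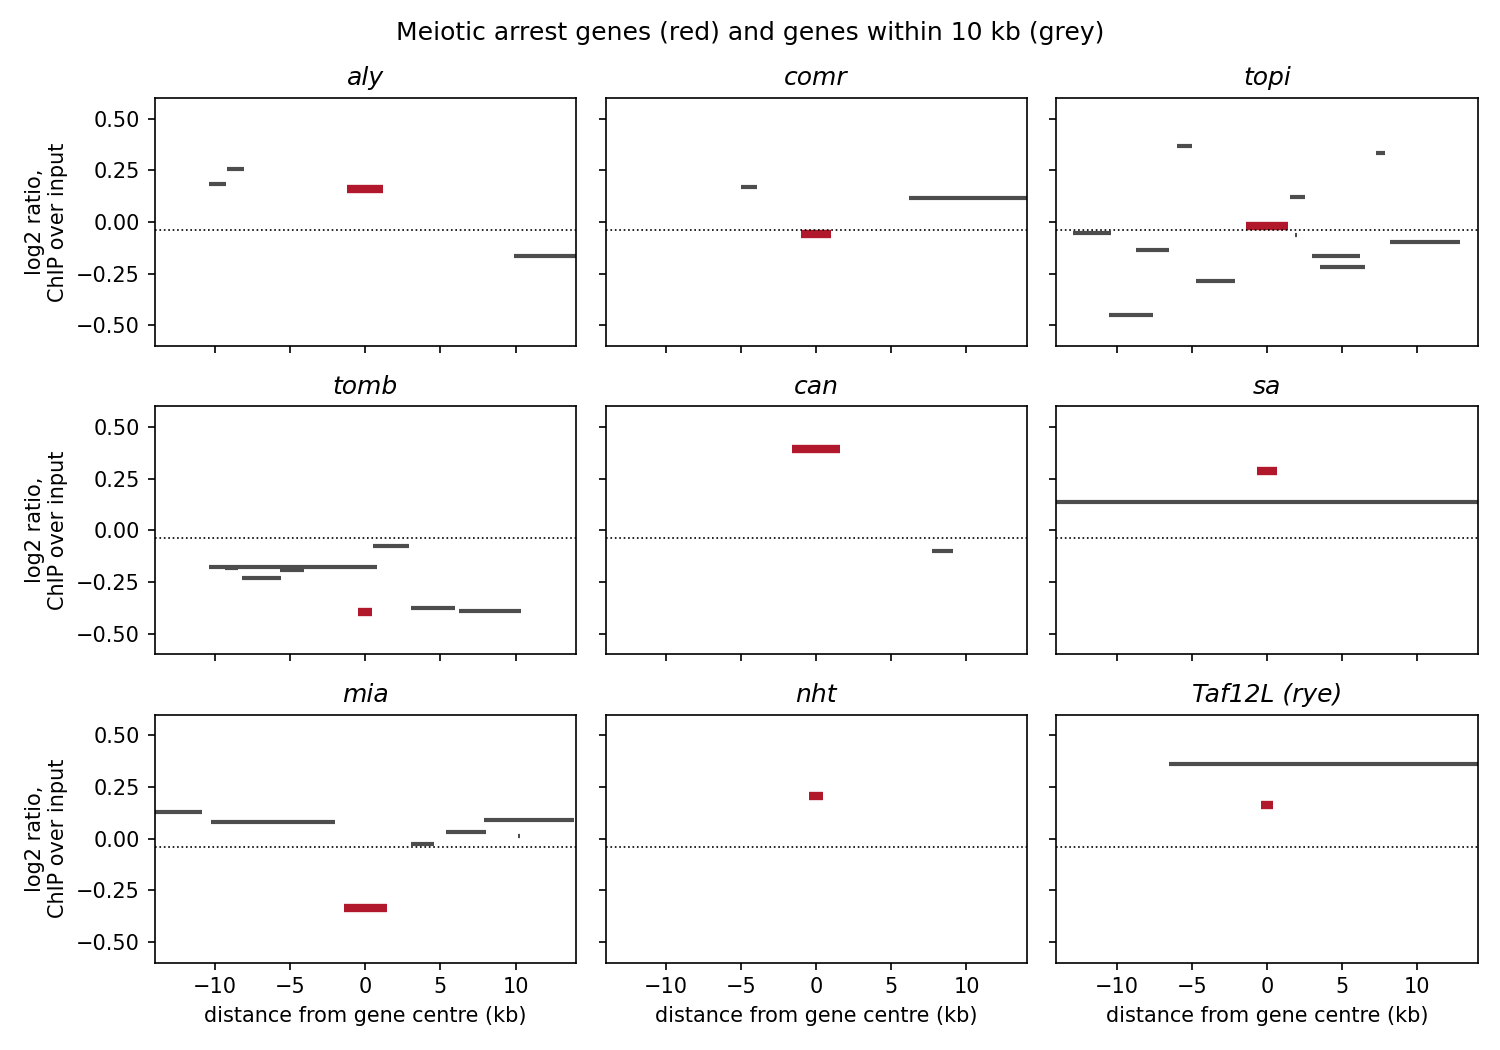
Log2 ratio of dBigH1 ChIP over input (y axis) against distance from the gene's centre in kb (x axis) for each arrest gene and Taf12L (red) and every gene that overlaps it or lies within 10 kb (grey), each drawn as a line over its own length, cut at the panel edge. The dotted line is the median of all genes. The red line of mia lies under all 6 grey ones, and the panel of nht has no grey line.

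Single genes of the same programme lay on both sides of the median of all genes. The list of further arrest genes and tMAC partners held 13 measured genes, of which 7 exceeded the median of all genes and 6 lay under it, with a median log2 ratio of -0.03. The 7 include bam (0.12) and bgcn (-0.01), which act in spermatogonia and are neither meiotic arrest genes nor tMAC partners. At least 0.25 above the median lay 1 of the 13, against 17.7% of all genes, and at least 0.25 below it 2, against 19.6%. Their pooled reads, 3186 in the ChIP and 2645 in the input, gave a log2 ratio of -0.22 (interval -0.30 to -0.15), and simj, a long gene with a log2 ratio of -0.29, held 1636 of the ChIP reads and 1459 of the input reads. The highest was wuc, the testis relative of lin-52 and a tMAC subunit, with 7.96 RPKM in the ChIP, 6.62 RPKM in the input and a log2 ratio of 0.23 (interval -0.35 to 0.82). The lowest was mip40 (-0.42, interval -0.92 to 0.08), a subunit that tMAC shares with the complex of other tissues, and nxf2 (-0.03), an RNA export factor relative known from the piRNA pathway and not as an arrest gene, lay at the median. The difference of wuc from lin-52, at 0.14 (-0.87 to 1.14), was not detectable at this depth.

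Genes of meiosis and of spermatids, many of them known to depend on tMAC, the tTAFs or both, were read from 3 lists. The 3 meiotic targets were CycB (-0.67, interval -0.95 to -0.39), the mitotic cyclin gene, twe (-0.27, interval -0.59 to 0.05), the Cdc25 phosphatase gene of male meiosis, and bol (-0.02, interval -0.11 to 0.07), an RNA-binding protein gene. CycB is also used in embryonic divisions. Of the 23 spermatid targets, 11 exceeded the median of all genes and 12 lay under it, with a median log2 ratio of -0.08. At least 0.25 above it lay 6 of the 23 (17.7% of all genes), and at least 0.25 below it 2 (19.6% of all genes). They ran from gdl (-0.52, interval -0.91 to -0.12) to the sperm protein gene Mst84Db (0.58, interval -0.37 to 1.52, from 21 ChIP and 9 input reads), with Mst98Ca at the median. Of the 21 cup and comet genes, which are transcribed after meiosis, 14 lay above and 7 below, with a median of 0.06. At least 0.25 above lay 6 of the 21 (17.7% of all genes), and at least 0.25 below 4 (19.6% of all genes). The lowest of the 21 was hale (-0.60, interval -1.08 to -0.10), the highest sowi (0.50, interval -0.02 to 1.03), and d-cup (0.06) lay at the median. The genes swif and cola have the same span and the same reads (113 in the ChIP, 57 in the input, log2 ratio 0.42). Both are counted among the 14 and among the 6, although they are a single measurement.

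Accessory gland genes, another male set but one of somatic secretory cells, were read for comparison. They were picked by symbol, as Acp or Sfp followed by a digit. That rule also took in the adult cuticle protein genes Acp1 (log2 ratio 0.13) and Acp65Aa (-0.11), which are counted with them. The 8 arrest genes had a median log2 ratio of 0.07, and the 45 accessory gland genes one of 0.28. Of these 45 genes, 36 exceeded the median of all genes and 27 did so by at least 0.25, where 17.7% of all genes do, while 2 lay at least 0.25 below it, where 19.6% of all genes do. The 45 genes ran from Acp29AB (-0.46) to Sfp24Ba (1.39), with Acp63F at 0.28. Pooled reads gave a log2 ratio of 0.07 (interval -0.08 to 0.21) for the arrest genes and 0.29 (interval 0.19 to 0.40) for the accessory gland genes. The difference, arrest genes minus accessory gland genes, was -0.23 on the log2 scale, with an exact conditional interval of -0.41 to -0.05. Median ChIP RPKM was 6.49 for the arrest genes and 8.77 for the accessory gland genes, and median input RPKM 6.10 and 6.84. The list of relatives used in many tissues, with lin-52 as its eighth gene and highest value (0.11), had a median of -0.26.

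**Figure D4:**
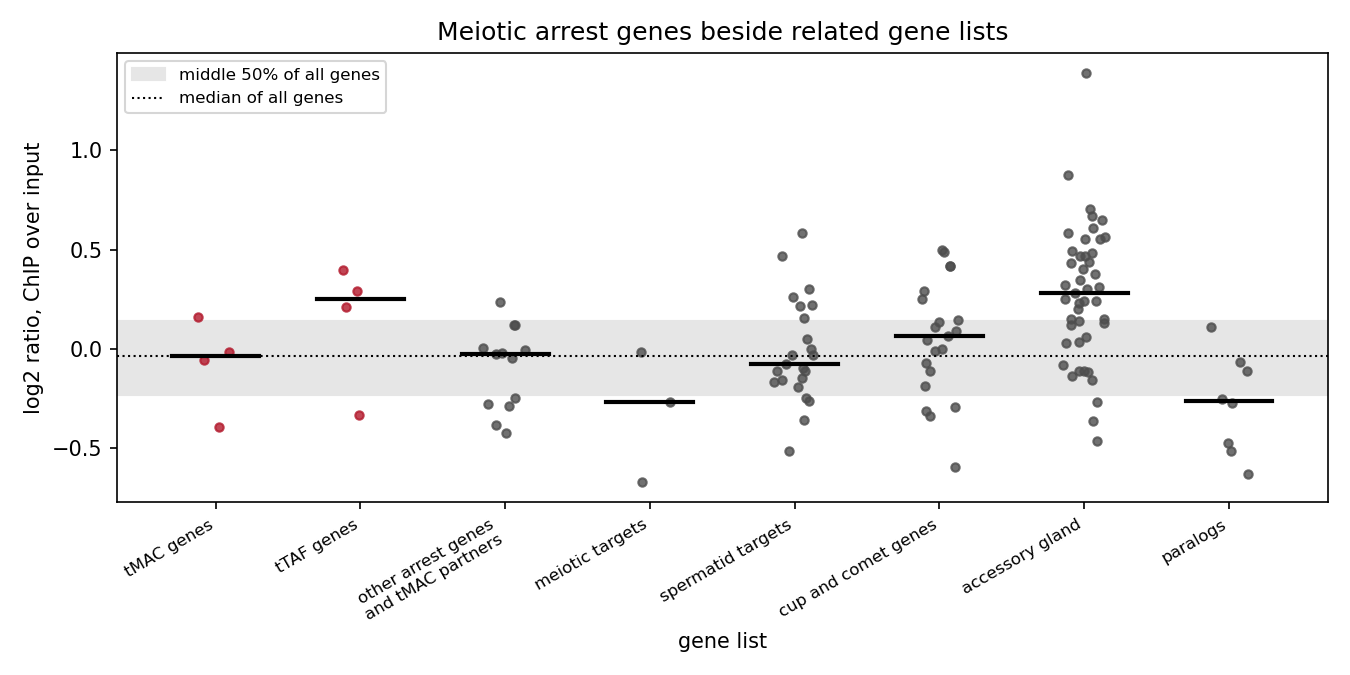
Log2 ratio of dBigH1 ChIP over input (y axis) for each gene (points) of the tMAC and tTAF sets (red) and of 6 related lists (grey, x axis), with the list's median as a black bar, the middle 50% of all genes shaded and their median dotted. The bar of the tTAF genes stands at 0.25 and that of the tMAC genes at -0.04, and 1 tTAF point, mia, lies at -0.34.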

How the data were processed

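The libraries, 1 of dBigH1 ChIP and 1 of input, were made from 3.5 ng of DNA, amplified by 18 PCR cycles and sequenced as 50 nt single reads, per the labels' protocols. Build dm3 and the tools Bowtie2, R 2.15, CASAVA 1.9 and FastQC 0.10 are listed in the submitters' processing notes. The annotation, the counting tool and any removal of duplicates are not given there or in the labels. Per the file headers, the authors deposited a log2 RPKM column for each library and a score under the name of a MAnorm fold change. The values show that the log2 column is log2(RPKM + 1): reads came out whole, within 1e-05 reads, for 100% of genes, with library totals of 8803832 (ChIP) and 6272887 (input). The deposited score had an SD of 1.00 over all genes, so it served as an alternative only.

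Ratios used a pseudocount of 1 RPKM. Intervals (95%) are exact: Clopper-Pearson for the ChIP share of reads, Poisson for RPKM, and conditional for the odds ratio of 2 genes. No test was run between groups of 1 library. The genes and lists were chosen with earlier results of these data known. List genes were matched by symbol, otherwise by Entrez number through a RefSeq table of Release 6, used for names only. Caf1 and o-cup had no match and are not analysed here, and the spermatid list also holds betaTub60D, not a testis gene. Genes named are the 8 members, Taf12L, their relatives, nearest and overlapping neighbours, the lowest, highest and middle gene of each list and the 3 genes nearest in level. The promoter features planned could not be read, as no sequence was used here. Alternatives were other pseudocounts, scalings, backgrounds and members. The software was matplotlib 3.10.9, scipy 1.17.1, pandas 2.3.3, numpy 2.4.6 and statsmodels 0.14.6 under Python 3.11.15. The Clopper-Pearson procedure, with no added RPKM, was run on simulated independent reads. That checks the computation only, and not whether the reads of these libraries are independent. The Poisson and odds ratio intervals were not part of it.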

Additional observations from a re-analysis of the deposited data

How the results depend on the processing

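With no pseudocount, or one of 0.1 or 5 RPKM, with centring, a lowess correction, or each gene taken relative to its own arm (chosen after seeing the data), the median log2 ratio of the 8 genes ran from 0.04 to 0.12, that of the tTAF genes from 0.16 to 0.29 and that of the tMAC genes from -0.04 to 0.00094. On the authors' deposited score, which has another scale, the median of the 8 genes was 0.34 and that of the tTAF genes 0.91. Adding Taf12L after seeing the data gave 0.16 for all 9 genes and 0.21 for the tTAF genes. Genes above the median numbered 5 in each planned background and 6 among genes of the same input reads, a background chosen after seeing the data. With the filter on input RPKM, or that depth range, 3 genes lay at least 0.25 above it, nht being the third. The pairs kept 6 of 7 testis genes higher, mia being the exception, in all 7 alternatives of scale. Below 0 as reported, topi stood above 0 with centring (0.02), lowess (0.03), its own arm (0.01) and the deposited score (0.07). The interval of mia ended at -0.0414 and no longer lay below the median with the filter on input RPKM (-0.0444) or in that depth range (-0.0777). Depth limits tomb, nht, sa and Taf12L most. No paired analysis was possible because each group has 1 library.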
